A study of Mus musculus with 8 samples.

Results

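Complement and coagulation genes encode plasma proteins that the liver makes and secretes. The set described here was given as 39 gene symbols: 16 of complement, 11 clotting factors, and 12 inhibitors, fibrinolysis proteins and contact proteins. Each gene was read through its brightest probe on an Illumina bead array. Of the 39, 36 had a probe among the 16593 genes of the table, and 35 were among the 9766 genes tested. C3, Cfd and Cpb2 were not analysed here. C1ra lay within the background range on all 7 arrays (signals of -18.6 to 4.3) and was not tested. Fgb was tested, but its signals of -4.6 to 26.8 were also within that range, and it is given no fold. The background range means a signal under 39.5, since negative values reached that far below 0. The other 34 genes were above the median of their array on all 7 arrays, so none of them entered the test through 1 group alone.

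The study asked which liver genes depend on FXR, the bile acid receptor encoded by Nr1h4, by giving mice of the labels Fxr-/- and Fxr+/+ either GW4064, a synthetic FXR agonist, or vehicle. The mice were males aged 10 to 12 weeks, dosed by gavage 2 times a day for 7 days, and GW4064 was given at 30 mg/kg. Each of the 8 samples was RNA pooled from 3 to 4 livers, with 2 samples per group. The groups were Fxr-/- with GW4064, Fxr-/- with vehicle, Fxr+/+ with GW4064 and Fxr+/+ with vehicle. The column of Fxr-/- vehicle replicate 2 held small whole numbers that correlated with no other array (highest Spearman correlation 0.0559). It is not an array signal, so that group rests on 1 array and 7 arrays were used. The strain, the deleted part of the gene and the composition of the vehicle are not given in the sources used here. Each p-value measures the spread between these pools, which may be technical.

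Nr1h4 itself did not fall to background on the arrays labelled Fxr-/-. Its signal was 2048 and 1852 on the Fxr-/- GW4064 arrays, against 3328 and 3483 on the Fxr+/+ GW4064 arrays, and 3272 on the Fxr-/- vehicle array, against 3959 and 4411 on the Fxr+/+ vehicle arrays. The log2 difference was -0.80 under GW4064 (SE 0.186, adjusted p = 0.0276) and -0.35 under vehicle (SE 0.228, adjusted p = 0.388). Whether this probe lies inside the deleted part is not known, so the genotype could not be checked from it. Fxr-/- and Fxr+/+ below therefore name the libraries labelled so.

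Complement is a cascade of proteases and binding proteins. The lectin route starts when mannose-binding lectins and their MASP proteases cleave C4 and C2, the alternative route runs through factor B, and both converge on the membrane attack complex of C5b, C6, C7, C8 and C9. In clotting, the contact factors XII and XI and the vitamin K-dependent factors VII, IX and X lead to thrombin, which turns fibrinogen into fibrin. Factor XIII crosslinks the fibrin and plasmin dissolves it. Hepatocytes make most of these proteins. In human liver cells fibrinogen and kininogen genes are known FXR-induced genes.

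The main difference in this gene set lay between the genotype labels. Under GW4064, 16 of 35 genes were lower and 0 were higher in Fxr-/- than in Fxr+/+ liver at an adjusted p under 0.05, while 9.14% of all genes tested were lower and 5.47% higher. Under vehicle, 13 genes passed, against 6.85% of all genes: 12 were lower, against 5%, and Fgb was called higher from background-range signals, against 1.85%. All 12 genes lower under vehicle were also lower under GW4064, which is 75% of the 16. Of all genes, 389 were lower under both treatments, 43.6% of the 893 lower under GW4064 and 79.7% of the 488 lower under vehicle. These 2 comparisons share no arrays, but they share 1 estimate of the spread. The Fxr-/- vehicle side is a single array with no spread of its own, assumed to vary like the other groups, in every comparison that uses it. GW4064 itself changed no gene of the set past the threshold in either genotype label.

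The median log2 difference, Fxr-/- minus Fxr+/+, was -0.68 over the 35 genes under GW4064 and -0.91 under vehicle, against 0.08 and 0.03 over all genes tested. Under GW4064, 27 of 35 genes were below 0, against 42.8% of all genes, and under vehicle 30 of 35, against 47.5%. All 3 Fxr-/- arrays were below all 4 Fxr+/+ arrays for 23 of 35 genes, against 16.1% of all genes. They were above all 4 for F2, Fgb and Serpinc1, against 19.2% of all genes. In bulk liver RNA, fewer cells of a type and less RNA per cell cannot be told apart. The count under GW4064 depended on single arrays: it was 10 without Fxr-/- GW4064 replicate 2, 10 without Fxr+/+ GW4064 replicate 1 and 8 without Fxr+/+ GW4064 replicate 2.

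**Figure D1:**
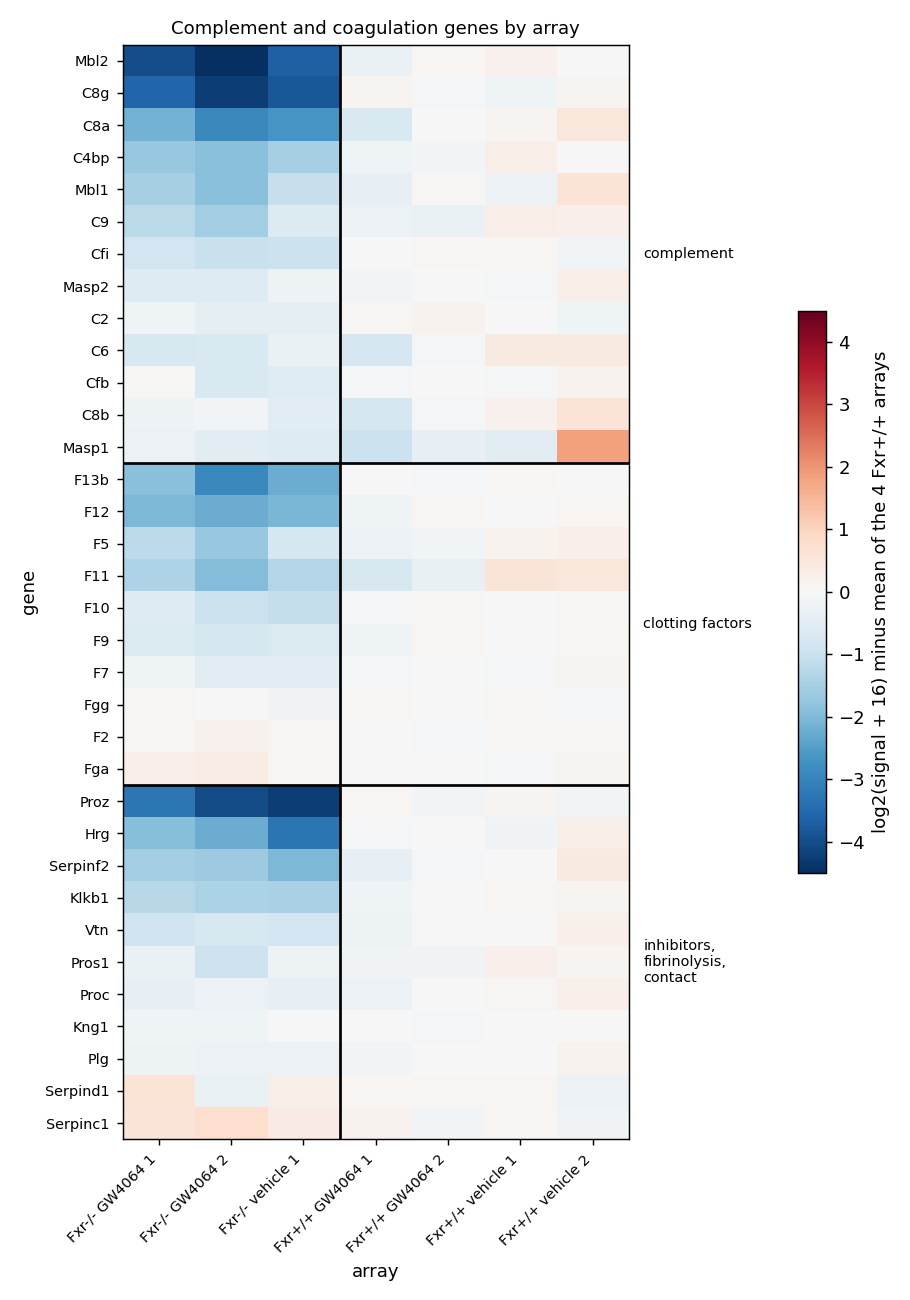
Each row is 1 of the 34 genes above background and each column 1 array. Colour gives log2(signal + 16) minus the mean of that gene over the 4 Fxr+/+ arrays, blue for lower and red for higher. The 3 Fxr-/- arrays, left of the line, are bluest for Mbl2, C8g and Proz, while Fgg and F2 are close to white on every array.

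The start-site regions of 29 genes of the set, 250 bases before to 50 bases after the RefSeq start in GRCm38.p6, were searched on both strands for 7 short motifs. The strict inverted-repeat FXR element was in 0 of 29 and in 0.0396% of all 32851 regions. The nuclear receptor half-site AGGTCA was in 11 of 29 (16.3% of all regions), among them 4 of the 15 regions of genes lower under GW4064. CAAAGGTCA, an HNF4-type element that contains AGGTCA, was in F7 and F9 (0.478% of all regions), and an HNF1-type element was in C4bp and F13b (0.399%). TTGCNNAA, of the C/EBP type, was in 9 (10.8%), TTCNNNGAA, of the STAT type, in 8 (8.3%) and TATAAA in 3 (13.6%). A match is only a run of letters, and the absence of one says nothing about a factor elsewhere in the gene. The regions printed here belong to Mbl2, F13b, Hrg and Proz, which were lower under both treatments, and to F7, which lies beyond F10 from Proz and did not pass; all are on the plus strand, capitals mark the motif matches, and Proz has none. They lie at chr19:30232678-30232977 (Mbl2), chr1:139501457-139501756 (F13b), chr16:22950822-22951121 (Hrg), chr8:13060658-13060957 (Proz) and chr8:13025784-13026083 (F7). The match in Mbl2 begins 47 bases before the start, that in F13b 55 bases before, and that in F7 34 bases before.
Mbl2: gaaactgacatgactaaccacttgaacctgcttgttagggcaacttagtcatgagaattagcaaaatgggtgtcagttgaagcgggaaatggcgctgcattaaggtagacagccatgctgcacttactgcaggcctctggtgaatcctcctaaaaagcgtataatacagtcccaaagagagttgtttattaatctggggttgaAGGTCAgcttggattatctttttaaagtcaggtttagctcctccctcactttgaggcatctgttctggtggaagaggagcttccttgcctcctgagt
F13b: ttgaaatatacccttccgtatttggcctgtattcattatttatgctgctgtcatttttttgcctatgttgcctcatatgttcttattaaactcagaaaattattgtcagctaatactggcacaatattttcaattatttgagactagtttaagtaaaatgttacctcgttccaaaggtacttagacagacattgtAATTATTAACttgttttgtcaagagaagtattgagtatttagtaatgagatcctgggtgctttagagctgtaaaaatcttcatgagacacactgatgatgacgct
Hrg: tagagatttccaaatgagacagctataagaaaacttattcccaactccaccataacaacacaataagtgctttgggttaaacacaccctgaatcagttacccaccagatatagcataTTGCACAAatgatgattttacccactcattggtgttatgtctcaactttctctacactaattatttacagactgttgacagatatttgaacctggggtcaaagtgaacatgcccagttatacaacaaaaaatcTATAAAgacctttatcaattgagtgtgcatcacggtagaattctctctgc
Proz: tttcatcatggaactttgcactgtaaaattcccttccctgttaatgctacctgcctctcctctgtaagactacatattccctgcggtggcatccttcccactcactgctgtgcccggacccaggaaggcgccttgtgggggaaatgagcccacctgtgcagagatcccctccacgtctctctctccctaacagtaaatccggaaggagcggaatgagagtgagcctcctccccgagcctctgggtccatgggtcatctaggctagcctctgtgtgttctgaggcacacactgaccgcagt
F7: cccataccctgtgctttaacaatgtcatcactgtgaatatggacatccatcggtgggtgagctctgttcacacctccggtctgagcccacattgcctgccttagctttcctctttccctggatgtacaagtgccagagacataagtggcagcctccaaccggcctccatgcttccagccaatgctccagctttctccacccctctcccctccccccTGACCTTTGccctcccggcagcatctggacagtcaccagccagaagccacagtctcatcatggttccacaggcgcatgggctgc

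Among the complement genes, 7 of the 13 tested were lower in Fxr-/- liver under GW4064 and 4 of them also under vehicle. Of all genes tested, 9.14% were lower under GW4064 and 5% under vehicle. The lowest were the lectin Mbl2 and the C8 gamma chain gene C8g. The group median was -0.94 under GW4064 and -0.96 under vehicle on the log2 scale, and all 13 estimates were below 0 under vehicle. C2, C6, C8b, Cfb, Masp1 and Masp2 did not pass in either comparison.

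Mannose-binding lectins bind sugars on microbes. Mbl2, which encodes one of them (mannose-binding lectin C), had signals of 400 and 189 on the Fxr-/- GW4064 arrays, against 5375 and 7118 on the Fxr+/+ GW4064 arrays. Under vehicle its signal was 507 on the Fxr-/- array, against 7681 and 6679 on the Fxr+/+ arrays. The highest Fxr-/- value was far below the lowest Fxr+/+ value. The mean signal was 21.2 times higher in Fxr+/+ than in Fxr-/- liver under GW4064 and 14.2 times higher under vehicle. The log2 difference was -4.41 (SE 0.338, adjusted p = 0.000345) under GW4064 and -3.78 (SE 0.413, adjusted p = 0.0028) under vehicle. Mbl1, the gene of the other circulating mannose-binding lectin of mice, had 664 and 506 on the Fxr-/- GW4064 arrays, against 1462 and 1974 on the Fxr+/+ GW4064 arrays. It had 932 on the Fxr-/- vehicle array, against 1569 and 2936 on the Fxr+/+ vehicle arrays. The groups did not overlap under either treatment, and the difference passed under GW4064 (log2 difference -1.53, SE 0.326, adjusted p = 0.0208) but not under vehicle (-1.19, SE 0.4, adjusted p = 0.122). The MASP proteases that act with these lectins did not pass: Masp2 was at -0.50 under GW4064 and -0.33 under vehicle, and Masp1 at 0.31 and -1.26 with SEs of 0.657 and 0.805. For Masp1, Fxr+/+ vehicle replicate 2 stood apart at 908, where the other 6 arrays were at 115 to 199.

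The C8 protein of the membrane attack complex is built from 3 chains, and the genes for 2 of them were lower. C8g, for the gamma chain, had 1419.8 and 893 on the Fxr-/- GW4064 arrays, against 18486 and 16264 on the Fxr+/+ GW4064 arrays. On the vehicle arrays it had 1198 in Fxr-/- liver, against 14885 and 18426 in Fxr+/+ liver. The groups were 15.0 times apart in mean signal under GW4064 and 13.9 times under vehicle, with log2 differences of -3.93 (SE 0.262, adjusted p = 0.000219) under GW4064 and -3.77 (SE 0.321, adjusted p = 0.00109) under vehicle. C8a, for the alpha chain, had 276 and 158 on the Fxr-/- GW4064 arrays, against 794 and 1277 on the Fxr+/+ GW4064 arrays. Its vehicle signals were 190.3 in Fxr-/- liver, against 1399.9 and 1835 in Fxr+/+ liver. All 3 Fxr-/- values were below all 4 Fxr+/+ values, with log2 differences of -2.18 (SE 0.33, adjusted p = 0.00521) under GW4064 and -2.97 (SE 0.404, adjusted p = 0.00664) under vehicle. C8b, for the beta chain, did not pass, although it is the direct neighbour of C8a in RefSeq, with 0 protein-coding genes between them. Its signals were 2259 and 2444 on the Fxr-/- GW4064 arrays, against 1553 and 2571 on the Fxr+/+ GW4064 arrays, and 1880.3 on the Fxr-/- vehicle array, against 3006 and 4095 on the Fxr+/+ vehicle arrays. These overlapped under GW4064, where the log2 difference was 0.23 (SE 0.282, adjusted p = 0.641). Whether C8a and C8b differ in their response was not tested.

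C9 and C6 complete the members of the attack complex. C9, which forms the pore, had 3099 and 2446 on the Fxr-/- GW4064 arrays, against 6078 and 5912 on the Fxr+/+ GW4064 arrays. Under vehicle it had 4675 in Fxr-/- liver, against 9012 and 8534 in Fxr+/+ liver. The groups did not overlap under either treatment, and the call was made under GW4064 (log2 difference -1.12, SE 0.199, adjusted p = 0.0101) but not under vehicle (-0.91, SE 0.243, adjusted p = 0.0693). C6, which binds C5b, was at -0.29 under GW4064 and -0.71 under vehicle, with adjusted p = 0.49 and 0.203. Hc, the mouse gene of C5, is outside the set and was at -0.49 under GW4064 and -0.53 under vehicle, with adjusted p = 0.135 and 0.21.

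Of the genes that restrain C3b and C4b, both in the set were lower under GW4064 and C4bp also under vehicle. C4bp encodes C4b-binding protein, which speeds the decay of the C3 convertase of the classical and lectin routes, and factor I, encoded by Cfi, is the protease that cleaves C4b and C3b. C4bp had 1693 and 1499.5 on the Fxr-/- GW4064 arrays, against 4882 and 5059 on the Fxr+/+ GW4064 arrays. It had 1964 on the Fxr-/- vehicle array, against 6787 and 5541 on the Fxr+/+ vehicle arrays. This non-overlapping difference was -1.63 under both treatments (SE 0.198, adjusted p = 0.00209 under GW4064, and SE 0.242, adjusted p = 0.00901 under vehicle). Cfi had 7294 and 6561 on the Fxr-/- GW4064 arrays, against 13002 and 13517 on the Fxr+/+ GW4064 arrays. Its vehicle signals were 6689 in Fxr-/- liver, against 14112 and 12097 in Fxr+/+ liver. The log2 difference passed under GW4064 (-0.94, SE 0.191, adjusted p = 0.0172) and missed the threshold under vehicle (-0.96, SE 0.233, adjusted p = 0.0527). The calls of C9, Cfi and Mbl1 under GW4064 were lost without Fxr-/- GW4064 replicate 2, without Fxr+/+ GW4064 replicate 1 and without Fxr+/+ GW4064 replicate 2, each with an adjusted p of 0.0559 to 0.135.

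The convertase genes Cfb and C2, direct neighbours in RefSeq, did not pass. Cfb, for factor B of the alternative route, had 4977 and 2957 on the Fxr-/- GW4064 arrays, against 4603 and 4675 on the Fxr+/+ GW4064 arrays. On the vehicle arrays it had 3300.2 in Fxr-/- liver, against 4614 and 5287 in Fxr+/+ liver. One Fxr-/- value was above 3 of the 4 Fxr+/+ values, so the groups overlapped, and the log2 differences were -0.27 (95% interval -0.89 to 0.35) under GW4064 and -0.58 (-1.34 to 0.18) under vehicle. C2 was at -0.41 under GW4064 and -0.31 under vehicle, with adjusted p = 0.21 and 0.461, although all 3 Fxr-/- signals (4392 to 5068) were below all 4 Fxr+/+ signals (5084 to 6495).

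Among the 11 clotting factor genes, 5 were lower in Fxr-/- liver under GW4064 (F5, F10, F11, F12 and F13b), against 9.14% of all genes tested. Under vehicle 4 of these, all but F5, were lower, against 5% of all genes. Factor XII and the carrier subunit of factor XIII had the lowest log2 differences under both treatments, while prothrombin and the 2 fibrinogen chains above background did not pass. The median log2 difference of the group was -0.68 under GW4064 and -0.71 under vehicle.

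F12 encodes factor XII, the protease that starts the contact pathway. It had 1680 and 1462 on the Fxr-/- GW4064 arrays, against 6044 and 7344 on the Fxr+/+ GW4064 arrays. Under vehicle it had 1656 in Fxr-/- liver, against 6944 and 7222 in Fxr+/+ liver. The means were 4.26 times apart under GW4064 and 4.28 times under vehicle, with log2 differences of -2.08 (SE 0.198, adjusted p = 0.000814) under GW4064 and -2.09 (SE 0.243, adjusted p = 0.00366) under vehicle. Its other 2 probes gave -2.30 and -1.99 under GW4064. F11 encodes factor XI, which factor XIIa activates. Its signals were 758 and 509 on the Fxr-/- GW4064 arrays, against 1194 and 1564 on the Fxr+/+ GW4064 arrays, and 791 on the Fxr-/- vehicle array, against 2971 and 2825 on the Fxr+/+ vehicle arrays. The groups did not overlap, and the log2 difference was -1.12 under GW4064 (SE 0.25, adjusted p = 0.0245) and -1.85 under vehicle (SE 0.306, adjusted p = 0.0133). F11 was also the clotting gene whose Fxr+/+ arrays differed most by treatment.

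F13b encodes the B subunit of factor XIII, which carries the crosslinking A subunit in plasma, and its start-site region holds the HNF1-type match printed above. It had 681 and 327 on the Fxr-/- GW4064 arrays, against 2567 and 2369 on the Fxr+/+ GW4064 arrays. On the vehicle arrays it had 527 in Fxr-/- liver, against 2650.4 and 2534 in Fxr+/+ liver. The 4 Fxr+/+ arrays lay close together and well above all 3 Fxr-/- arrays, with log2 differences of -2.34 (SE 0.319, adjusted p = 0.00341) under GW4064 and -2.26 (SE 0.391, adjusted p = 0.0156) under vehicle. F5 encodes factor V, the cofactor of factor Xa. It had 341 and 232 on the Fxr-/- GW4064 arrays, against 656 and 738 on the Fxr+/+ GW4064 arrays, and 466 on the Fxr-/- vehicle array, against 891 and 946 on the Fxr+/+ vehicle arrays. Without overlap, the log2 difference was -1.26 (SE 0.227, adjusted p = 0.0108) under GW4064 and missed the threshold under vehicle at -0.95 (SE 0.278, adjusted p = 0.0865).

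The vitamin K-dependent factors F10, F9 and F7 had log2 differences of -1.10 to -0.32. F10, for factor X, had 4758 and 3615 on the Fxr-/- GW4064 arrays, against 6703 and 7358 on the Fxr+/+ GW4064 arrays. It had 3358 on the Fxr-/- vehicle array, against 7072 and 7358 on the Fxr+/+ vehicle arrays. The groups did not overlap, but the calls were close to the threshold: -0.76 under GW4064 (SE 0.208, adjusted p = 0.0496) and -1.10 under vehicle (SE 0.254, adjusted p = 0.0451). F9, for factor IX, was at -0.68 under GW4064 and -0.71 under vehicle (adjusted p = 0.0587 and 0.124) with all 3 Fxr-/- signals (4682 to 5059) below all 4 Fxr+/+ signals (7054 to 8605). F7, for factor VII, was at -0.32 under GW4064 and -0.56 under vehicle (adjusted p = 0.338 and 0.22), with signals of 701 to 885 in Fxr-/- and 963 to 1119 in Fxr+/+ liver. The GW4064 calls of F5, F10 and F11 were lost without Fxr-/- GW4064 replicate 2, without Fxr+/+ GW4064 replicate 1 and without Fxr+/+ GW4064 replicate 2 (adjusted p of 0.0536 to 0.245). F10 was also lost in both comparisons when each array was centred on its median (0.0542 and 0.0531), when all probes were kept (0.134 and 0.105), and when either of the Fxr+/+ vehicle arrays was left out. The vehicle call of F13b was lost without Fxr+/+ vehicle replicate 1 (adjusted p = 0.0531).

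Prothrombin and fibrinogen did not show this pattern. F2, the gene of prothrombin, had 9091 and 9910.5 on the Fxr-/- GW4064 arrays, against 8635 and 8301 on the Fxr+/+ GW4064 arrays, and 9321 on the Fxr-/- vehicle array, against 8982 and 8949.8 on the Fxr+/+ vehicle arrays. The Fxr-/- values were slightly above the Fxr+/+ values on every array, with log2 differences of 0.16 (95% interval -0.26 to 0.59) under GW4064 and 0.06 (-0.46 to 0.57) under vehicle, which did not pass. Fgg, for the fibrinogen gamma chain, had 13954 and 13576 on the Fxr-/- GW4064 arrays, against 13770.5 and 13237 on the Fxr+/+ GW4064 arrays. Its vehicle signals were 11986 in Fxr-/- liver, against 13872 and 12582 in Fxr+/+ liver. These overlapped under GW4064 and differed by 0.03 (-0.40 to 0.45) under GW4064 and -0.14 (-0.66 to 0.38) under vehicle. Fga, for the alpha chain, had 30943 and 33025 on the Fxr-/- GW4064 arrays, against 25996 and 25838 on the Fxr+/+ GW4064 arrays. It had 27129 on the Fxr-/- vehicle array, against 24360.1 and 28761 on the Fxr+/+ vehicle arrays. The Fxr-/- arrays were higher under GW4064 and lay between the Fxr+/+ arrays under vehicle, with log2 differences of 0.30 (-0.14 to 0.74) under GW4064 and 0.04 (-0.50 to 0.57) under vehicle. The Fga signals lie close to the highest of the table (39229). Fgb, for the beta chain, had 26.8 and 15.9 on the Fxr-/- GW4064 arrays, against 4.4 and 7.3 on the Fxr+/+ GW4064 arrays, and 24.2 on the Fxr-/- vehicle array, against -3.7 and -4.6 on the Fxr+/+ vehicle arrays. All of these are within the background range, so the probe gives no level of Fgb.

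**Figure D2:**
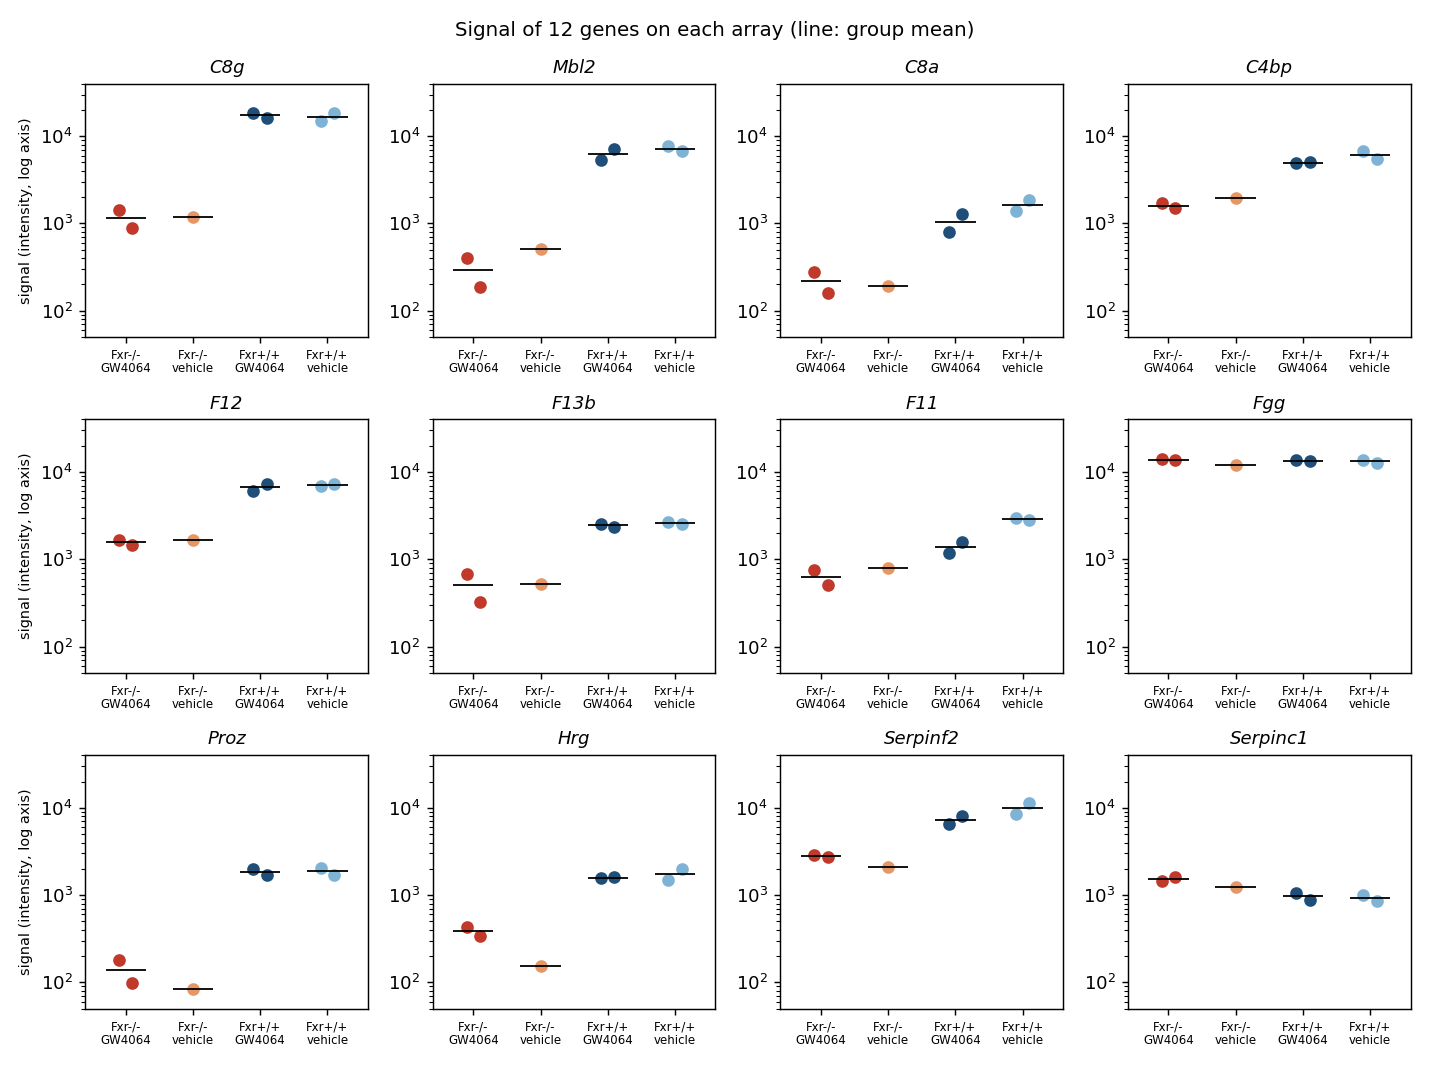
Each panel gives the signal of 1 gene (intensity, log axis) on each of the 7 arrays by group, with a line at the group mean; the Fxr-/- vehicle group has 1 array. C8g, Mbl2, C8a, C4bp, F12, F13b, F11, Proz, Hrg and Serpinf2 are lower on every Fxr-/- array than on every Fxr+/+ array, Fgg is level at 11986 to 13954, and Serpinc1 lies slightly higher on the Fxr-/- arrays.

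Of the 11 inhibitor, fibrinolysis and contact genes tested, the same 4 were lower in Fxr-/- liver under both treatments: Proz, Hrg, Serpinf2 and Klkb1. The share of all genes called lower was 9.14% under GW4064 and 5% under vehicle. The median log2 difference of the group was -0.46 under GW4064 (-0.24 without Fxr-/- GW4064 replicate 2) and -0.49 under vehicle. The inhibitors of the protein C system and antithrombin did not pass.

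Proz encodes protein Z, the vitamin K-dependent cofactor with which the inhibitor Serpina10 blocks factor Xa. It had 178 and 98.4 on the Fxr-/- GW4064 arrays, against 1986 and 1711 on the Fxr+/+ GW4064 arrays. On the vehicle arrays it had 84.2 in Fxr-/- liver, against 2032 and 1704 in Fxr+/+ liver. Mean signals were 13.4 times higher in Fxr+/+ than in Fxr-/- liver under GW4064 and 22.2 times under vehicle, with log2 differences of -3.64 (SE 0.278, adjusted p = 0.000345) under GW4064 and -4.23 (SE 0.34, adjusted p = 0.00101) under vehicle. Proz lies next to F10 in RefSeq, and F10 next to F7, with 0 protein-coding genes between each pair, and the log2 differences under GW4064 were -3.64 for Proz, -0.76 for F10 and -0.32 for F7. Serpina10, outside the set, was at -0.69 under GW4064 and -0.52 under vehicle and did not pass (adjusted p = 0.0608 and 0.242).

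Hrg encodes histidine-rich glycoprotein, which binds heparin, plasminogen and fibrinogen. Its signals were 426 and 341 on the Fxr-/- GW4064 arrays, against 1563 and 1610.5 on the Fxr+/+ GW4064 arrays. On the vehicle arrays they were 156 in Fxr-/- liver, against 1478 and 1971 in Fxr+/+ liver. The means were 4.14 times apart under GW4064 and 11.1 times under vehicle, with log2 differences of -2.01 (SE 0.221, adjusted p = 0.00147) under GW4064 and -3.33 (SE 0.271, adjusted p = 0.00101) under vehicle. A second, dimmer Hrg probe gave -2.97 under GW4064 and -3.59 under vehicle. Kng1, with 1 protein-coding gene between it and Hrg, did not pass. It encodes kininogen, the precursor of bradykinin and a cofactor of contact activation. The main Kng1 probe had 29374 and 28761 on the Fxr-/- GW4064 arrays, against 33697 and 31948 on the Fxr+/+ GW4064 arrays, and 33529 on the Fxr-/- vehicle array, against 33847 and 33529 on the Fxr+/+ vehicle arrays. These signals, near the top of the range, gave -0.17 (95% interval -0.59 to 0.24) under GW4064 and -0.01 (-0.52 to 0.50) under vehicle. A Kng1 probe with a mean signal of 15040 gave -0.52 under GW4064 and -0.78 under vehicle, so the probes of this gene differ in size.

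Serpinf2 encodes alpha-2-antiplasmin, the main inhibitor of plasmin. It had 2871 and 2719 on the Fxr-/- GW4064 arrays, against 6594 and 8088 on the Fxr+/+ GW4064 arrays. Its vehicle signals were 2088 in Fxr-/- liver, against 8591 and 11305 in Fxr+/+ liver. The groups were well apart, with log2 differences of -1.38 (SE 0.219, adjusted p = 0.00652) under GW4064 and -2.23 (SE 0.268, adjusted p = 0.0041) under vehicle, and 2 further probes gave -1.45 and -1.72 under GW4064. Klkb1 encodes plasma prekallikrein, which factor XIIa activates and which cleaves kininogen. It had 1136 and 1001 on the Fxr-/- GW4064 arrays, against 2339 and 2738 on the Fxr+/+ GW4064 arrays, and 983 on the Fxr-/- vehicle array, against 2838 and 2915 on the Fxr+/+ vehicle arrays. The groups did not overlap, with log2 differences of -1.23 (SE 0.192, adjusted p = 0.00608) under GW4064 and -1.53 (SE 0.235, adjusted p = 0.0102) under vehicle. Its direct neighbour in RefSeq, F11, was lower under both treatments as well. Without Fxr+/+ GW4064 replicate 2, the GW4064 calls of Serpinf2 and Klkb1 were lost, each at an adjusted p of 0.0617.

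Plasminogen, which Serpinf2 acts on once it is activated, did not pass. Plg had 14059.7 and 13627 on the Fxr-/- GW4064 arrays, against 15035 and 16200.3 on the Fxr+/+ GW4064 arrays, and 13814 on the Fxr-/- vehicle array, against 16676 and 18486 on the Fxr+/+ vehicle arrays. Every Fxr-/- value was below every Fxr+/+ value by a small margin, with log2 differences of -0.17 (95% interval -0.60 to 0.25) under GW4064 and -0.35 (-0.87 to 0.18) under vehicle, and the dimmest Plg probe was at 0.08 under GW4064. Antithrombin, the main inhibitor of thrombin and factor Xa, is encoded by Serpinc1. It had 1442 and 1615 on the Fxr-/- GW4064 arrays, against 1070.3 and 881 on the Fxr+/+ GW4064 arrays, and 1245 on the Fxr-/- vehicle array, against 1013 and 863 on the Fxr+/+ vehicle arrays. All 3 Fxr-/- values were above all 4 Fxr+/+ values, but the log2 differences of 0.64 (SE 0.204, adjusted p = 0.0773) under GW4064 and 0.41 (SE 0.25, adjusted p = 0.361) under vehicle did not pass. Protein C, an anticoagulant protease, is encoded by Proc. It had 9321 and 10163 on the Fxr-/- GW4064 arrays, against 10107 and 12033 on the Fxr+/+ GW4064 arrays, and 9483 on the Fxr-/- vehicle array, against 12714 and 14059.7 on the Fxr+/+ vehicle arrays. These overlapped under GW4064, with differences of -0.18 (adjusted p = 0.592) under GW4064 and -0.49 (adjusted p = 0.253) under vehicle. Pros1, for the cofactor of protein C, was at -0.46 under GW4064 and -0.38 under vehicle, and Serpind1, for heparin cofactor II, at 0.07 under GW4064 and 0.34 under vehicle, and neither passed. Vtn, for vitronectin, an adhesive protein that also blocks the membrane attack complex, was at -0.71 under GW4064 and -0.96 under vehicle with all 3 Fxr-/- signals (11902 to 13391) below all 4 Fxr+/+ signals (19178 to 26376), and missed the threshold (adjusted p = 0.0567 and 0.0636).

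**Figure D3:**
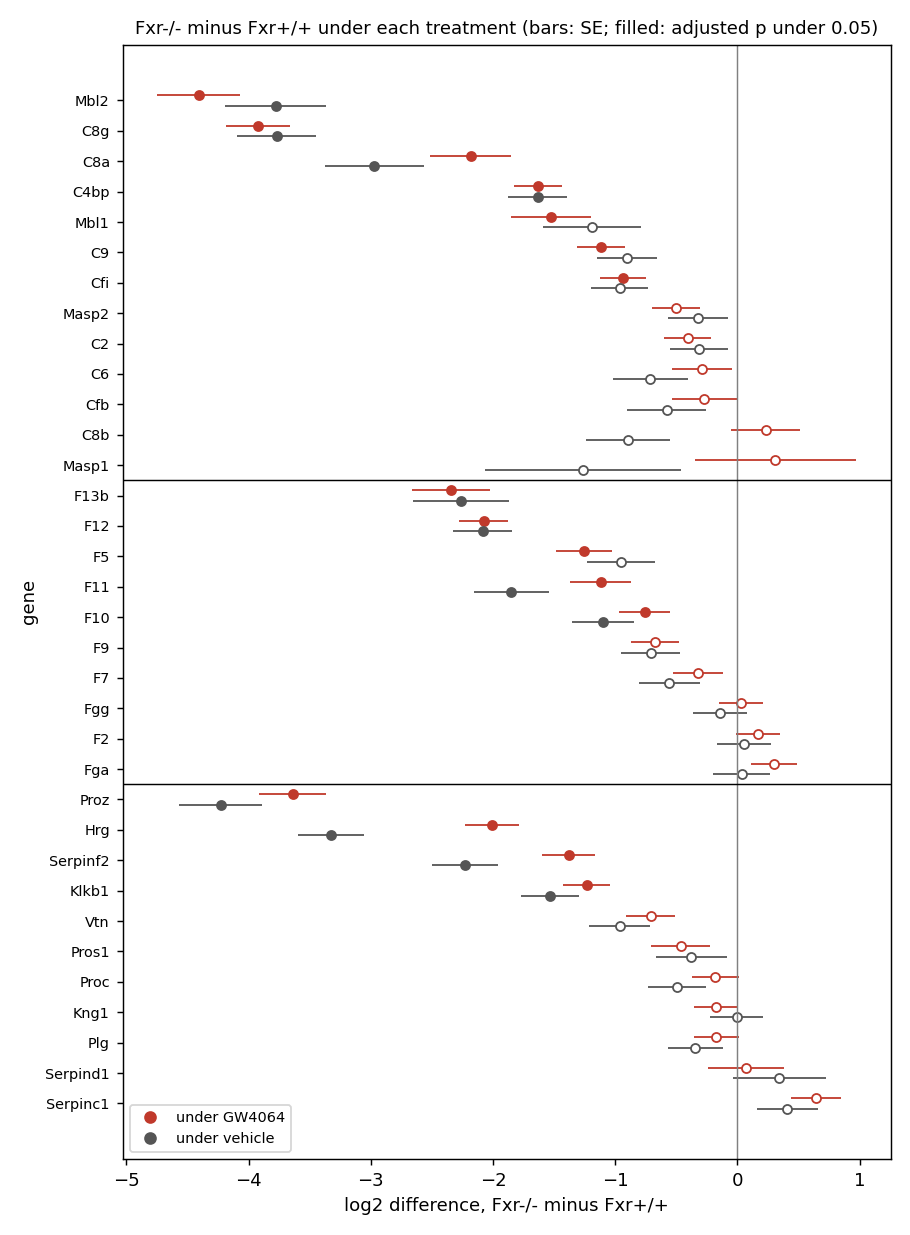
The log2 difference, Fxr-/- minus Fxr+/+, of each of the 34 genes above background is drawn with its SE, in red under GW4064 and in grey under vehicle; filled points passed an adjusted p of 0.05. The 3 blocks are complement, clotting factors, and inhibitors with fibrinolysis and contact proteins. Filled points run from -4.41 (Mbl2 under GW4064) to -0.76 (F10 under GW4064).

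GW4064 changed 0 of the 35 genes past the threshold in Fxr+/+ liver by limma, where 0.0205% of all genes tested passed (2 of 9766). On simulated data this comparison recovered 0% of 2-fold and 94% of 4-fold changes, so smaller changes could be missed. At an unadjusted p under 0.05 there were 4: C6, C8b, C9 and F11, all lower with GW4064, beside 494 of all 9766 genes. The estimates were below 0 for 28 of 35 genes, against 51.3% of all genes, but small: the median was -0.10, against -0.01 over all genes tested. By group the median was -0.30 for complement, -0.07 for clotting factors and -0.17 for the inhibitor, fibrinolysis and contact genes. These medians depended on single arrays, that of the clotting factors less than the others. In the same order of groups they were -0.12, -0.03 and -0.10 without Fxr+/+ GW4064 replicate 1. Without Fxr+/+ GW4064 replicate 2 they were -0.41, -0.09 and -0.22. They were -0.33, -0.12 and -0.24 without Fxr+/+ vehicle replicate 1, and -0.15, -0.04 and -0.10 without Fxr+/+ vehicle replicate 2. Both GW4064 arrays were below both vehicle arrays for 13 of 35 genes, against 17.7% of all genes, and above both for 2, against 15.8%.

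The smallest p belonged to F11, with 1194 and 1564 on the Fxr+/+ GW4064 arrays, against 2971 and 2825 on the Fxr+/+ vehicle arrays. The 2 treatments did not overlap, and the log2 difference was -1.08 (SE 0.25, unadjusted p = 0.00296, adjusted p = 0.624). F5 was at -0.39 (SE 0.227, adjusted p = 1). C6 had 1794 and 2868 with GW4064, against 4079.7 and 4082 with vehicle, a difference of -0.84 (SE 0.248, adjusted p = 0.787). C8b was at -0.81 (SE 0.282, adjusted p = 0.935) from the signals given above, and its 2 treatments did not overlap. C9 was at -0.55 (SE 0.199, adjusted p = 0.968). In the last group Serpinf2 was at -0.43 (SE 0.219) and Proc at -0.28 (SE 0.195), each with an adjusted p of 1. The largest estimate, -1.34 for Masp1, rests on the single vehicle array at 908. For the fibrinogen genes the differences were -0.03 for Fga (95% interval -0.47 to 0.41) and 0.03 for Fgg (-0.39 to 0.45), and for Kng1 the main probe was at -0.04 (-0.45 to 0.38).

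In Fxr-/- liver GW4064 likewise changed 0 of the 35 genes by limma, where 0.0717% of all genes passed (7 of 9766) and 0.0512% were higher. This comparison has 1 vehicle array, and on simulated data it recovered 0% of 2-fold and 80.9% of 4-fold changes. At an unadjusted p under 0.05 were 3 of 35 genes, C9 (-0.76), F5 (-0.70) and Hrg (1.21), a smaller share than the 955 of all 9766 genes. The median over the set was 0.03, against 0.01 over all genes. Hrg had 426 and 341 on the Fxr-/- GW4064 arrays, against 156 on the Fxr-/- vehicle array, a log2 difference of 1.21 (SE 0.271, unadjusted p = 0.00241, adjusted p = 0.197). Even at the higher value, the Fxr-/- arrays stayed below the lowest Fxr+/+ array for this gene. C9 was at -0.76 (SE 0.243, adjusted p = 0.351), Mbl2 at -0.84 (SE 0.413, adjusted p = 0.585) and F5 at -0.70 (SE 0.278, adjusted p = 0.483). F10 was at 0.30 (SE 0.254, adjusted p = 0.798) and Proz at 0.57 (SE 0.34, adjusted p = 0.694). The GW4064 arrays were both below the vehicle array for 10 of 35 genes, against 33% of all genes, and both above it for 12, against 35.1%.

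The effect of GW4064 did not differ between the genotype labels past the threshold for any of the 35 genes, nor for any of the 9766 tested (0%), although 604 genes had an unadjusted p under 0.05. In the set, 3 did: Hrg, with 1.21 in Fxr-/- and -0.10 in Fxr+/+ liver (difference 1.31, SE 0.35, adjusted p = 0.572), C8b, with 0.32 in Fxr-/- and -0.81 in Fxr+/+ liver (difference 1.13, SE 0.446, adjusted p = 0.754), and Serpinf2, with 0.42 in Fxr-/- and -0.43 in Fxr+/+ liver (difference 0.85, SE 0.346, adjusted p = 0.765). Masp1 was at 1.57 (SE 1.04, adjusted p = 0.916), F11 at 0.74 (SE 0.395, adjusted p = 0.885) and F10 at 0.34 (SE 0.328, adjusted p = 0.945). These estimates all use the single Fxr-/- vehicle array.

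**Figure D4:**
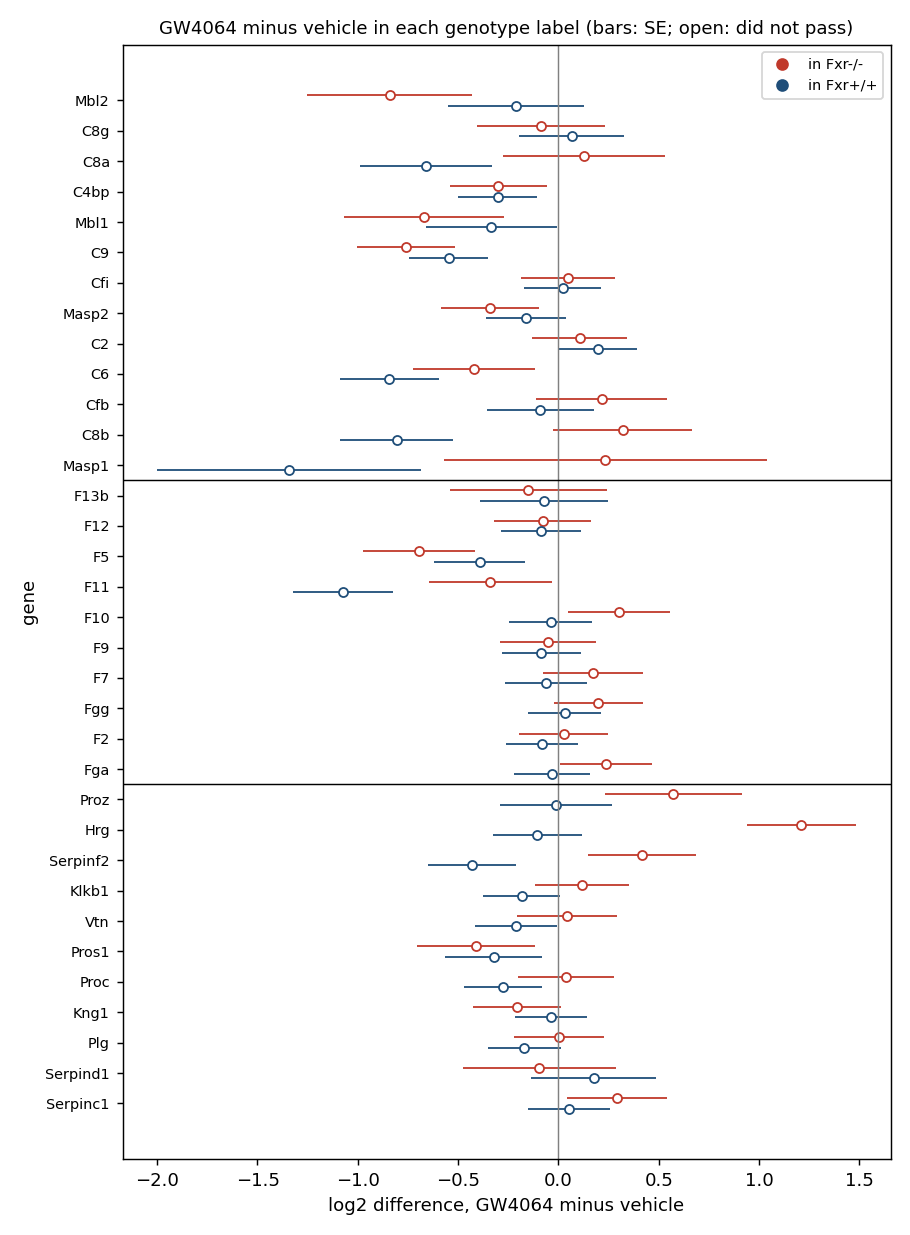
The log2 difference, GW4064 minus vehicle, of the same 34 genes is drawn with its SE, in red for Fxr-/- and in blue for Fxr+/+ liver; all points are open because none passed. Most blue points lie near or below 0, down to -1.34 for Masp1, and the red point of Hrg stands furthest right at 1.21.

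Further complement and coagulation genes outside the set were read from a list of 54, of which 44 were on the array and 36 were tested. Under GW4064, 7 of the 36 were called lower and 0 higher in Fxr-/- liver, against 9.14% and 5.47% of all genes tested. Under vehicle 4 were lower and 0 higher, against 5% and 1.85% of all genes. The 7 lower under GW4064 include F13a1. It was within the background range on every Fxr-/- array and entered the test through the Fxr+/+ arrays alone, so that call is not read as a result. C4b, for the C4 that the lectin route cleaves, had 3362 and 3486 on the Fxr-/- GW4064 arrays, against 8451 and 9657 on the Fxr+/+ GW4064 arrays, and 3039 on the Fxr-/- vehicle array, against 10276 and 9219 on the Fxr+/+ vehicle arrays. The groups did not overlap (log2 differences -1.40 and -1.67, adjusted p = 0.00334 and 0.00684), though C4b has a near-identical copy in the mouse genome and its probe may read both. Serpinf1, for pigment epithelium-derived factor, was at -2.19 under GW4064 and -1.91 under vehicle (adjusted p = 0.00137 and 0.00937). Serpina1a, one of a family of near-identical antitrypsin genes, was at -1.66 under GW4064 and -1.12 under vehicle (adjusted p = 0.00198 and 0.035). Others of that family did not pass: Serpina1b was at -0.14 under GW4064 and -0.05 under vehicle, and Serpina1c at 0.12 and 0.07. F2r, for a thrombin receptor, was at -1.08 under GW4064 and -1.10 under vehicle (adjusted p = 0.0112 and 0.0372). Called lower under GW4064, but not under vehicle, were Lman1, for a cargo receptor of factors V and VIII (-1.36, adjusted p = 0.00926), and C1qa, for a C1q chain made by macrophages (-0.91, adjusted p = 0.0443). Serping1, for the C1 inhibitor, did not pass (-0.38 and -0.26). GW4064 changed 0 of the 36 in either genotype label.

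Marker genes of liver cell types were read beside these results. The summed signal of 6 hepatocyte markers was 104001 to 118580 on Fxr-/- arrays and 100638 to 118988 on Fxr+/+ arrays, and 0 of the 6 passed under GW4064. Apoa1, Ttr, Serpina1c and Cps1 made up nearly all of that sum, while the Alb probe was dim on all arrays (81.6 to 168.7). Serpina1c held the highest signal of the table (39229) and Apoa1 was also near the top, which limits what the sum can show. Hnf4a, a transcription factor of hepatocytes, had 3033 and 3507 on the Fxr-/- GW4064 arrays, against 4977 on both Fxr+/+ GW4064 arrays, and 2212 on the Fxr-/- vehicle array, against 5437 and 5408 on the Fxr+/+ vehicle arrays. It was lower under vehicle (log2 difference -1.29, adjusted p = 0.0167). Of 6 neutrophil markers tested, S100a8, S100a9 and Camp were lower in Fxr-/- liver under GW4064 and not called under vehicle. The neutrophil list sums were 235 to 1008 on Fxr-/- and 1422 to 3494 on Fxr+/+ arrays. These sums include Mpo, Ngp and Ltf, whose calls are not counted for the reason given below. The macrophage sum was 2486 to 3688 on Fxr-/- and 3613 to 5436 on Fxr+/+ arrays, with C1qa the 1 gene of 6 called under GW4064. Of 4 lymphocyte markers tested, 2 were lower under GW4064 and 0 under vehicle, and Ms4a1 was within the background range on all arrays. The neutrophil genes Mpo and Ngp and the matrix gene Col3a1 were above the array median on 0 Fxr-/- arrays. They entered the test through the Fxr+/+ arrays alone and their calls are not counted. The neutrophil gene Ltf was above the median on 1 Fxr-/- array, fewer than the filter needs. It also depended on the Fxr+/+ arrays to be tested, and its call is not counted. Alas2, of red blood cells, was lower under both treatments and Sox9, of bile ducts, was higher under GW4064, while 0 endothelial and 0 platelet markers passed. The 4 fat cell markers were within the background range on all arrays. Of 16 acute phase genes, Saa2 was lower and Itih3 higher under GW4064, and 1 was lower and 0 higher under vehicle. Their sums were 138276 to 154472 on Fxr-/- and 129463 to 145672 on Fxr+/+ arrays. The part of Hnf4a, of the other cell type markers and of the acute phase genes in the results above was not tested.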

How the data were processed

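The authors deposited 1 intensity per probe and array for 25697 probes. In the 7 columns used, values were on a linear scale, background-subtracted (31.5% to 31.6% of values below 0) and quantile normalized (sorted columns differed by at most 0.5), as the values show; the labels name no software for this. The deposited column of Fxr-/- vehicle replicate 2 was left out. The platform annotation gave 23978 probes 1 symbol and 1719 none. Signals were taken as log2(max(signal, 0) + 16), so folds of dim genes are understated. Probes above the array median on at least 2 arrays were kept, and each gene was read through its kept probe of highest mean (9766 genes). One cell-means model over the 7 arrays, which leaves 3 residual degrees of freedom, was fitted in limma 3.58.1 under R 4.3.3 and tested on simulated data first. There 200 of 9766 genes were changed, and 0% to 0.05% of 2-fold and 80.4% to 94% of 4-fold changes were recovered. A gene that did not pass may therefore still differ by 2-fold. The genotype comparisons called more genes (1427 under GW4064 and 669 under vehicle) than were changed in the simulation. The adjustment is less strict when more genes pass, so these recovery rates do not carry over to them. F10 passed at -0.76 under GW4064. The difference of the GW4064 effects was not simulated. The 5 comparisons were tested on both sides at 0.05 after Benjamini-Hochberg adjustment over all 9766 genes. Spearman correlations between arrays of a group were 0.965 to 0.969. The number of arrays limits the precision, and no detection p-values were used. The members, role groups, pathway list, marker lists and motifs were chosen with earlier results of these data known. Full statistics went to each member past the threshold and, where a role group had none, to the 2 with the smallest p. Other pathway genes were named when past the threshold, and Hc, Serpina10, Serping1 and Serpina1b although they did not pass. Alternatives changed the normalization, offset (1 or 100), filter, probe choice, variance model, samples in the fit, replicate block and left-out array. Start-site sequences came from RefSeq (GRCm38.p6). The array's own build is not given, so no probe coordinates are printed. Figures were drawn with matplotlib.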

Additional observations from a re-analysis of the deposited data

How the results depend on the processing

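No estimate of a called gene changed direction under any alternative run. The 16 genes past the threshold under GW4064 (Fxr-/- minus Fxr+/+) became 7 with no filter on dim probes, and 8 to 16 when each array but the single Fxr-/- vehicle array was left out in turn; the other settings gave 14 to 19. The 13 under vehicle, Fgb included, became 7 with no filter and 11 to 13 with an array left out, and 11 to 17 otherwise. Called in every alternative were 6 of the 16 (C8g, Mbl2, C4bp, F12, Proz and Hrg) and 7 of the 12 lower under vehicle (C8g, C4bp, F12, Proz, Serpinf2, Klkb1 and Hrg). Over all genes, the 1427 calls under GW4064 became 383 with no filter and 925 with an offset of 1, and 496 without Fxr+/+ GW4064 replicate 2; the cause was not tested. The 669 under vehicle became 973 with an intensity trend and 397 with only the 2 groups compared. The number of members called for GW4064 against vehicle, or for the difference of its effects, was 0 under every alternative. With the replicate number as a block, 19 genes passed under GW4064 and 15 under vehicle. Differences between replicates 1 and 2 correlated at 0.23 to 0.38 between groups, and only 2 numbers exist, so samples share a number and no known pairing. Leaving out Fxr+/+ GW4064 arrays leaves 1 array in that group, assumed to vary like the others. Signals within the background range, as for Fgb and C1ra, and near the highest of the table, as for Fga, Kng1, Apoa1 and Serpina1c, limit what those probes can show.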
